A study of Mus musculus with 4 samples.

Results

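The proneural bHLH genes Neurog2, Neurod1, Neurod2, Neurod6 and Bhlhe22 and the Hes and Hey genes Hes1, Hes5, Hes6 and Hey1 were followed here. These 9 genes were taken by name from the 29224 genes of the deposited tables, and all 9 were found there, each under 1 identifier. Proneural genes encode basic helix-loop-helix (bHLH) transcription factors that pair with E proteins, bind E-box sequences in DNA and drive progenitor cells towards a neuronal fate. Bhlhe22, counted with them here, encodes a bHLH repressor of postmitotic projection neurons. In the developing cortex, Neurog2 acts in progenitors and newborn cells of the excitatory lineage, and Neurod1, Neurod2, Neurod6 and Bhlhe22 act in the neurons that arise from them. Hes1, Hes5 and Hey1 encode bHLH repressors that Notch signalling induces and that hold proneural genes down in progenitors and glia, whereas Hes6 encodes a relative that opposes Hes1 and is switched on in differentiating neurons.

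To explore these genes after loss of Ezh2, which encodes the H3K27 methyltransferase of the PRC2 complex, RNA sequencing of cortical astrocytes from P5 mice was used. The 2 Ezh2 f/f libraries came from mice with floxed Ezh2 alleles, and the 2 Ezh2 cKO libraries from mice that also carried an Aldh1l1-icre transgene, which expresses Cre recombinase under the astrocyte gene Aldh1l1. Floxed alleles were thus shared by both groups, and Cre was present in the Ezh2 cKO group. Cells were purified with magnetic beads against GLAST (ACSA-1), the glutamate transporter encoded by Slc1a3. The number of mice per library is not given in the sources used here, so p-values measure the spread between these libraries, which may be technical.

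Ezh2 itself had 434 and 327 counts in Ezh2 f/f against 211 and 164 in Ezh2 cKO, or -1.11 as log2 fold change (SE 0.16, adjusted p = 3.26e-05 in edgeR). Total counts ranged from 16273308 to 17522152 per library. Every fold change below is Ezh2 cKO over Ezh2 f/f, from edgeR's quasi-likelihood test over 16793 genes with Benjamini-Hochberg adjustment. A gene was called when its adjusted p was under 0.05. In Ezh2 cKO 34.7% of all genes were called higher and 33.6% lower, 68.4% in either direction. The groups therefore differed across most of the transcriptome, and the counts of bHLH genes are given against these shares.

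The libraries held transcripts of several cell types. Slc1a3 stood at 11.1 and 11.6 FPKM, which are counts scaled by gene length and library total, in Ezh2 f/f and at 36.1 and 36.5 in Ezh2 cKO, and Aldh1l1 between 15.3 and 17.0 in all 4 libraries, so defining astrocyte markers were present. Rbfox3, a marker of mature neurons, was at 32.4 and 31.8 FPKM in Ezh2 f/f and at 51.2 and 50.3 in Ezh2 cKO. Of 15 astrocyte markers, 11 were higher and 0 lower in Ezh2 cKO, with summed FPKM of 157 to 161 in Ezh2 f/f against 577 to 634 in Ezh2 cKO. Of 12 pan-neuron markers, 11 were higher and 1 lower (summed FPKM 2845 to 3039 and 3056 to 3075, or 986 to 1142 and 1833 to 1868 without Tubb3, the lower one). Among 10 cycling-cell markers 0 were higher and 8 lower (51.7 to 57.6 and 37.7 to 38.8), with Mki67 at 2.11 and 2.27 FPKM in Ezh2 f/f against 1.19 and 1.12 in Ezh2 cKO. All 6 oligodendrocyte precursor, all 7 oligodendrocyte and all 10 microglia markers were higher, and of 10 inhibitory neuron markers 2 were higher and 5 lower. Pdgfra (oligodendrocyte precursors) and Cx3cr1 (microglia) were detected in all 4 libraries. The part of cell composition in the results below was not tested, and in bulk RNA fewer cells of a type and less RNA per cell cannot be told apart.

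Promoter sequence was examined first for the members with an entry in RefSeq (GRCm38.p6): 6 of the 9 genes, with 7 windows of 250 bases ending just before the annotated start. These starts can differ from the GENCODE gene positions given below. The Hes6 window that is not shown lies within the Hes6 gene, and the Neurod1 and Neurod2 windows overlap their genes in part. Both strands were searched for the RBPJ motif GTGGGAA, through which Notch signalling acts on Hes genes, and for the E-box CANNTG. Hes5 is shown because it is a classical Notch target, and Neurod2, Neurod6 and Hes6 because they were the most abundant members and were all lower in Ezh2 cKO. Capitals mark the RBPJ motif in Hes5 (chr4:154960673-154960922, plus strand) and E-boxes in Neurod2 (chr11:98329646-98329895, minus strand), Neurod6 (chr6:55681264-55681513, minus strand) and Hes6 (chr1:91414039-91414288, minus strand), each written 5′ to 3′.
Hes5: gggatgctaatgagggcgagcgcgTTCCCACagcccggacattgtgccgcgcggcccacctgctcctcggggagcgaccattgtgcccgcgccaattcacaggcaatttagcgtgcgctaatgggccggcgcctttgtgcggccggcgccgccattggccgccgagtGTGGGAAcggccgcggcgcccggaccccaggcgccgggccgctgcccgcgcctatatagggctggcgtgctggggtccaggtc
Neurod2: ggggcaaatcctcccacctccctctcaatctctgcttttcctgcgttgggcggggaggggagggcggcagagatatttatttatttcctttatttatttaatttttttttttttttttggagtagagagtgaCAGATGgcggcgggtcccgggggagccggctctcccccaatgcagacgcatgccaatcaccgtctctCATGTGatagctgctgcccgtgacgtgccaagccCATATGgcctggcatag
Neurod6: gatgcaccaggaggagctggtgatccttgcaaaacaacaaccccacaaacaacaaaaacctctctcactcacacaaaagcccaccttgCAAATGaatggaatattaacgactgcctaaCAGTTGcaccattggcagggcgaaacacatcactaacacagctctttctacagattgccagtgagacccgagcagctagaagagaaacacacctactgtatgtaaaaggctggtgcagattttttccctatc
Hes6: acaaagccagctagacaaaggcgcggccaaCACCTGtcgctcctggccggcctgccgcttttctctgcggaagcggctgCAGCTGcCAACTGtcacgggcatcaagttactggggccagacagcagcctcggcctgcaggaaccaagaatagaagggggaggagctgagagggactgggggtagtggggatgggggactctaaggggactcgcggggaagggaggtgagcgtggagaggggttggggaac

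The Hes5 window held 2 matches to the RBPJ motif, whose first bases lie 226 and 83 bases before the start, in opposite orientations. Among 32851 promoter windows of the same length, 5.42% held at least 1 match and 0.161% held at least 2. The other 6 windows of these genes had 0 matches. E-boxes numbered 3 in Neurod2, 2 in Neurod6, 3 in the Hes6 window shown and 1 in its other window, 1 in Hes5, 1 in Neurod1 and 0 in Neurog2. At least 1 E-box was present in 66.2% of all windows and at least 3 in 12.2%. The Neurod2 window held the only CAGATG among them, the E-box form preferred by Neurogenin and NeuroD factors, 118 bases before the start, and 14.4% of all windows held that form on either strand. CAGATG is also counted among the E-boxes. The N-box CACNAG, which Hes repressors bind, was found 3 times in Neurod6 and 1 time in the other Hes6 window, and 36.7% of all windows held at least 1 and 1.25% at least 3. A match is a description of the letters and does not show that a factor binds there.

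The members spanned a wide range of levels. In Ezh2 f/f the order by mean FPKM was Neurod6, Neurod2, Hes6, Bhlhe22, Hey1, Hes5, Neurod1, Hes1 and Neurog2, and Neurod1 and Hes1 were the only neighbours in it whose libraries overlapped. In Ezh2 cKO the order differed only in that Hes1 stood above Neurod1, and Hes6 and Bhlhe22 were the neighbours that overlapped. Neurod6 ranked number 376 of 29224 genes by mean FPKM in Ezh2 f/f and number 941 in Ezh2 cKO, while Neurod2 went from rank 507 to 1842 and Hes6 from 850 to 2646. Of the 9 genes, 4 were lower (Neurog2, Neurod2, Neurod6 and Hes6), 3 were higher (Hes1, Hes5 and Bhlhe22) and 2 did not pass the test (Neurod1 and Hey1). The number called, 7 of 9, is close to the share among all genes, and the median log2 fold change was 0.04, beside 0.02 over all genes tested.

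**Figure D1:**
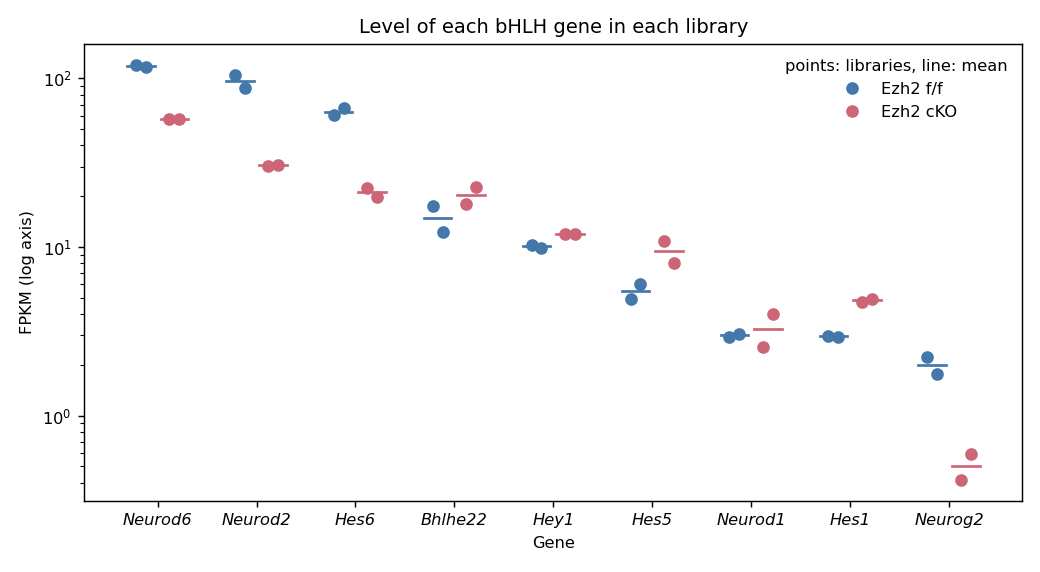
Deposited FPKM (log axis) of the 9 bHLH genes in each library, ordered by their mean in Ezh2 f/f. Points are libraries (n = 2 per group) and lines are group means. Neurod6, Neurod2, Hes6 and Neurog2 had both Ezh2 cKO libraries below both Ezh2 f/f libraries, as did 41.5% of all genes tested in CPM. Hes1, Hes5, Hey1 and, in FPKM only, Bhlhe22 had them above, as did 42.8% in CPM. The libraries of Neurod1 overlapped.

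Neurog2 (ENSMUSG00000027967, chromosome 3 from 127633135 to 127635631 in GRCm38), which initiates neurogenesis in dorsal telencephalic progenitors, was the scarcest member. It had 87 and 64 counts in Ezh2 f/f against 16 and 22 in Ezh2 cKO, or 2.23 and 1.77 against 0.415 and 0.592 FPKM. Both Ezh2 cKO libraries were below both Ezh2 f/f libraries, as they were for 41.5% of all genes tested in CPM. Its level fell from 4.58 ± 0.72 to 1.09 ± 0.26 CPM (± SD over 2 libraries each, with TMM-adjusted totals), its log2 fold change being -2.07 (SE 0.31, adjusted p = 3.65e-05 in edgeR), and 3.20% of tested genes had a lower log2 fold change. On log2(FPKM + 1) the difference was -0.99 in limma (adjusted p from 1.19e-09 to 0.0120 over the alternatives), a scale that understates changes of low genes. Of 10 neural progenitor markers, Hes5 among them, 3 were higher and 6 lower, with a median log2 fold change of -0.72. Their summed FPKM was 263 to 294 in Ezh2 f/f and 407 to 460 in Ezh2 cKO, but Fabp7 alone set that direction, and without it the sum was 88.6 to 92.3 against 57.8 to 58.9.

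Neurod1 (ENSMUSG00000034701, chromosome 2 from 79452521 to 79456751), which follows Neurog2 in intermediate progenitors and young neurons, behaved otherwise. It had 140 and 136 counts in Ezh2 f/f against 121 and 181 in Ezh2 cKO, or 2.93 and 3.06 against 2.56 and 3.98 FPKM. The Ezh2 cKO libraries lay on either side of both Ezh2 f/f libraries. A difference was not detected (log2 fold change 0.04, 95% interval -0.41 to 0.48, adjusted p = 0.879 in edgeR), and the value ran from -0.29 without Ezh2 cKO replicate 2 to 0.31 without Ezh2 cKO replicate 1. Neurod1 overlaps Cerkl in GENCODE M21, which had at most 2 counts in a library, and a gene on the other strand, whose reads could not be told apart from those of Neurod1 if strand was not used in counting.

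Neurod2 (ENSMUSG00000038255, chromosome 11 from 98325415 to 98329648 in GRCm38), which acts in the maturation of cortical excitatory neurons, had 105 and 87.3 FPKM in Ezh2 f/f against 30.3 and 30.6 in Ezh2 cKO. The groups did not overlap, and the Ezh2 cKO libraries were close to each other. Its level fell from 311 ± 38.7 to 93.0 ± 0.63 CPM (± SD over 2 libraries each), its log2 fold change being -1.74 (SE 0.10, adjusted p = 3.91e-09 in edgeR). Neurod6 (ENSMUSG00000037984, chromosome 6 from 55677822 to 55681263), a marker of postmitotic excitatory neurons, had 121 and 117 FPKM in Ezh2 f/f against 57.6 in each Ezh2 cKO library. That difference was also larger than the spread between replicates, with a log2 fold change of -1.13 (SE 0.09, adjusted p = 5.89e-08). Both genes were lower under all 12 alternatives, with log2 fold changes from -1.88 to -1.61 for Neurod2 and from -1.16 to -1.03 for Neurod6.

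Since Neurod2 and Neurod6 also serve as excitatory neuron markers, they are set beside the whole list of 9, which includes them. Of all 9 excitatory markers 3 were higher and 3 lower, Neurod2 and Neurod6 being 2 of the lower ones, and the summed FPKM of the list was 443 to 503 in Ezh2 f/f against 2005 to 2102 in Ezh2 cKO. Nrgn was most of that sum in Ezh2 cKO, and without it the list summed to 305 to 341 in Ezh2 f/f against 666 to 696 in Ezh2 cKO. Neurod2 and Neurod6, which were lower in Ezh2 cKO, are part of both sums, so the rest of the list rose by more than the sums show.

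Bhlhe22 (ENSMUSG00000025128, chromosome 3 from 18054174 to 18057517), a class E bHLH repressor of postmitotic projection neurons, had 17.5 and 12.3 FPKM in Ezh2 f/f against 18.1 and 22.8 in Ezh2 cKO. A narrow gap separated the groups in FPKM, but in CPM they overlapped, with 60.1 and 42.6 in Ezh2 f/f against 59.5 and 73.4 in Ezh2 cKO. Its log2 fold change of 0.37 (SE 0.14, 95% interval 0.07 to 0.67) passed the threshold in edgeR (adjusted p = 0.0320), but 5 of 12 alternatives called it, and the adjusted p ranged from 5.74e-07 to 0.388 over them. The value dropped to 0.13 when Ezh2 f/f replicate 2 was left out and to 0.21 when Ezh2 cKO replicate 2 was, and neither passed.

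**Figure D2:**
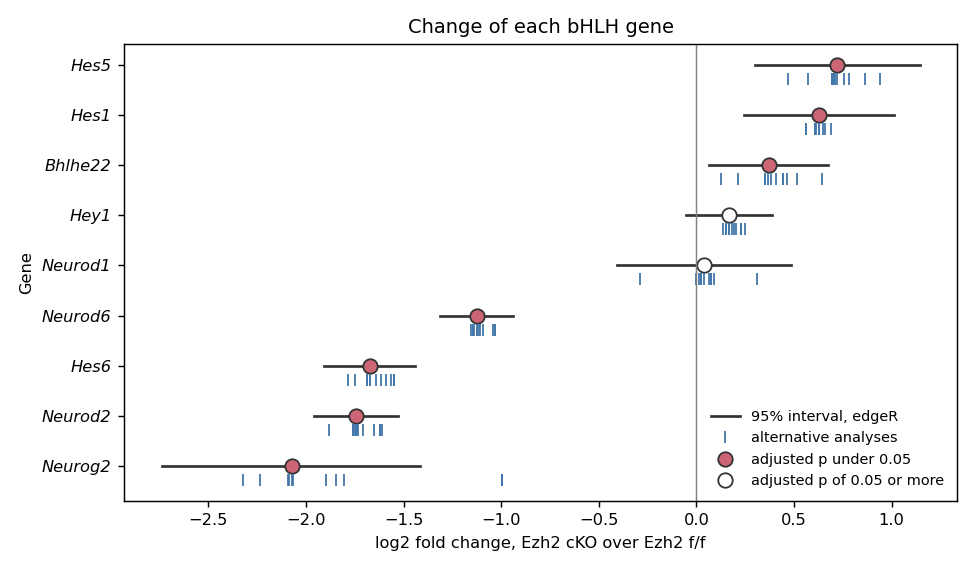
Log2 fold change (Ezh2 cKO over Ezh2 f/f) of each bHLH gene. Circles are the edgeR values, filled where the adjusted p is under 0.05, black lines are 95% intervals, and blue ticks are the alternative analyses. Neurog2, Neurod2, Hes6 and Neurod6 lie below -1, and the intervals of Neurod1 and Hey1 include 0.

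The NeuroD genes stood in another proportion to each other in Ezh2 cKO. Neurod2 made up 46.0% and 42.1% of the summed FPKM of Neurod1, Neurod2 and Neurod6 in the Ezh2 f/f libraries against 33.5% and 33.2% in the Ezh2 cKO libraries. Neurod6 made up 52.7% and 56.4% against 63.7% and 62.5%. The ratio of Neurod2 to Neurod1 was 35.9 and 28.5 in Ezh2 f/f against 11.8 and 7.70 in Ezh2 cKO. Neurod2 and Bhlhe22, at a ratio of 6.0 and 7.10 in Ezh2 f/f, stood at 1.67 and 1.34 in Ezh2 cKO.

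Of the Notch-induced repressors, Hes1 and Hes5 were called higher, as were 34.7% of all genes tested, and Hey1 was not called. A lower log2 fold change than that of Hes1 was found in 71.3% of tested genes, and than that of Hes5 in 74.0%. Hes1 (ENSMUSG00000022528, chromosome 16 from 30064384 to 30067796), which keeps progenitors undifferentiated, had 106 and 97 counts in Ezh2 f/f against 166 and 168 in Ezh2 cKO, or 2.97 and 2.93 against 4.70 and 4.94 FPKM. The pairs of libraries were tight and did not overlap. Hes1 rose by a log2 fold change of 0.63 (SE 0.18, 95% interval 0.24 to 1.01, adjusted p = 0.00648 in edgeR) and was called under all 12 alternatives.

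Hes5 (ENSMUSG00000048001, chromosome 4 from 154960923 to 154962371), the other main effector of Notch in cortical progenitors and in astrocytes, was counted 117 and 133 times in Ezh2 f/f against 258 and 183 in Ezh2 cKO. Its FPKM were 4.90 and 6.0 against 10.9 and 8.05, so the groups were separate and the Ezh2 cKO libraries were the more scattered. Hes5 rose by a log2 fold change of 0.72 (SE 0.20, 95% interval 0.30 to 1.14, adjusted p = 0.00485 in edgeR). Without Ezh2 cKO replicate 1, the library with 258 counts, the value was 0.47 and no longer passed (adjusted p = 0.108, the highest of the alternatives, which began at 1.07e-04). A gene on the other strand, Gm20421, overlaps Hes5 in GENCODE M21 and was not analysed here, so its reads could not be told apart from those of Hes5 if strand was not used.

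Hey1 (ENSMUSG00000040289, chromosome 3 from 8663359 to 8667256), a further Notch target that is also expressed in vessels, had 10.2 and 9.92 FPKM in Ezh2 f/f against 12 in each Ezh2 cKO library. Both Ezh2 cKO libraries were above both Ezh2 f/f libraries, as they were for 42.8% of all genes tested in CPM. Its log2 fold change of 0.17 (95% interval -0.05 to 0.39) did not pass in edgeR (adjusted p = 0.161), and it passed only in the 3 limma analyses of FPKM (adjusted p from 0.0316 to 0.368 over all alternatives). Of 8 endothelial markers 3 were higher and 1 lower, with summed FPKM of 98.6 to 104 in Ezh2 f/f and 101 to 116 in Ezh2 cKO.

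Hes6 (ENSMUSG00000067071, chromosome 1 from 91411483 to 91414038), the member of the family that promotes neuronal differentiation, went the other way. It had 60.5 and 66.4 FPKM in Ezh2 f/f against 22.4 and 19.7 in Ezh2 cKO, without overlap. Hes6 fell from 118 ± 8.56 to 37.1 ± 3.99 CPM (± SD over 2 libraries each), its log2 fold change being -1.67 (SE 0.11, adjusted p = 1.20e-08 in edgeR), and stayed between -1.79 and -1.55 over the 12 alternatives. Its change was near that of Neurod2 and opposite in sign to those of Hes1 and Hes5. Both Ezh2 cKO libraries were below both Ezh2 f/f libraries for 41.5% of all genes tested.

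Hes6 accounted for 77.0% and 77.9% of the summed FPKM of Hes1, Hes5, Hes6 and Hey1 in the Ezh2 f/f libraries. In the Ezh2 cKO libraries it accounted for 44.8% and 44.1%. The share of Hes5 was 6.23% and 7.04% in Ezh2 f/f against 21.8% and 18.0% in Ezh2 cKO, and that of Hes1 was 3.78% and 3.43% against 9.39% and 11.1%. The share of Hey1, which was not called, also went from 13.0% and 11.6% to 24.0% and 26.8%. A share depends on the sum, in which Hes6 fell, so a larger share is not by itself a higher level. The ratio of Hes6 to Hes5 moved from 12.3 and 11.1 to 2.05 and 2.44. The ratio of Hes5 to Hes1 overlapped between the groups, with 1.65 and 2.05 in Ezh2 f/f against 2.32 and 1.63 in Ezh2 cKO.

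**Figure D3:**
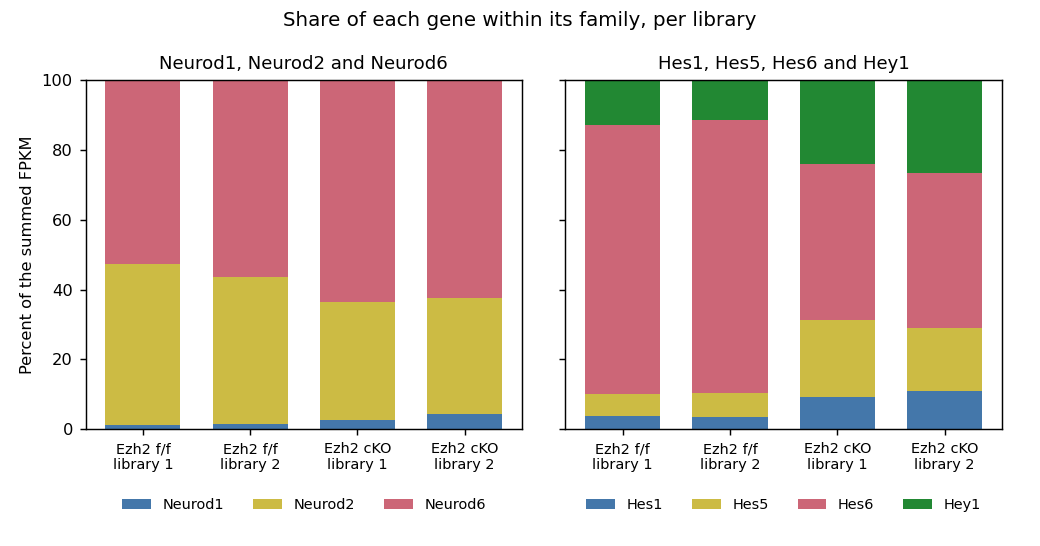
Share of each gene in the summed FPKM of its family, in percent, for each of the 4 libraries. The left bars hold Neurod1, Neurod2 and Neurod6, and the right bars hold Hes1, Hes5, Hes6 and Hey1. Hes6 took 77.0% to 77.9% of the right bars in Ezh2 f/f against 44.1% to 44.8% in Ezh2 cKO.

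Other neural bHLH genes were mixed. Of the 12 found, 7 were left by the filter on low counts. Among those 7, edgeR called 2 higher and 3 lower, beside 34.7% and 33.6% of all genes. Their median log2 fold change was -0.22. Nhlh2 and Nhlh1, which are expressed in young neurons, were lower (-2.54, adjusted p = 2.44e-06, and -1.43, adjusted p = 0.00701). The call of Nhlh1 held in 7 of 9 alternatives and was lost without Ezh2 cKO replicate 1 (-1.28). Nhlh2 had 93 and 99 counts in Ezh2 f/f against 16 and 19 in Ezh2 cKO. The oligodendrocyte lineage genes Olig1 (1.97, adjusted p = 2.92e-09) and Olig2 (0.61, adjusted p = 5.12e-05) were the higher ones. Both are also among the 6 oligodendrocyte precursor markers, whose summed FPKM was 51.1 to 51.2 in Ezh2 f/f and 157 to 179 in Ezh2 cKO, or 31.8 to 32.7 and 85.7 to 94.0 without Olig1. Neurog1, Atoh1 and Olig3 had at most 2 counts in every library, so no change could be detected at this depth.

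Among the partners of these factors, Tcf3, an E protein with which proneural factors dimerise, was lower (log2 fold change -1.31, adjusted p = 1.10e-07). Tcf12, another E protein, was also lower (-0.53, adjusted p = 0.00136) and was called in 9 of 12 alternatives. The value of Tcf4 did not pass (0.26, adjusted p = 0.0728). Of the Id genes, whose products sequester E proteins, Id3 was higher (1.25, adjusted p = 4.99e-07). Id2 was lower (-0.43, adjusted p = 0.00426), a call made in 8 of 12 alternatives and lost without Ezh2 cKO replicate 1 (-0.34, adjusted p up to 0.174 over the alternatives). Id4 passed at -0.65 (adjusted p = 0.0431), but 3 of 12 alternatives called it. Its libraries overlapped, with 372 and 813 counts in Ezh2 f/f against 369 and 445 in Ezh2 cKO. Without Ezh2 f/f replicate 2, the library with 813 counts, its value was 0.082 (adjusted p = 0.653, the highest of the alternatives), and the call was also lost without Ezh2 cKO replicate 1 (-0.51) or replicate 2 (-0.80). In all, 1 of these 7 genes was higher and 4 were lower, with a median of -0.43, beside 34.7% and 33.6% of all genes.

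Hes proteins recruit corepressors of the Groucho family, though not every member of it, and 4 of the 6 Tle genes of that family were lower. Tle3 (log2 fold change -1.66), Tle1 (-1.28), Tle2 (-1.03) and Tle4 (-0.58) were called in edgeR, with adjusted p from 4.41e-09 to 3.40e-04, and Tle5 was not (-0.16, adjusted p = 0.0958). Helt, a further Hes-related gene, was at -2.10 (adjusted p = 0.00478) on 16 and 13 counts in Ezh2 f/f against 4 and 3 in Ezh2 cKO. The call of Helt held in 5 of 9 alternatives (adjusted p up to 0.0743) and was lost without Ezh2 f/f replicate 1 (-2.01), Ezh2 cKO replicate 1 (-2.30) or Ezh2 cKO replicate 2 (-1.92). Heyl, a Notch target of the Hey family, was higher (0.56, adjusted p = 0.00768), with 0.40 and no call without Ezh2 cKO replicate 1. Bhlhe41, a repressor of the clock and differentiation, was higher too (1.49, adjusted p = 4.32e-05). Of 11 tested genes in this list 2 were higher and 5 lower, with a median of -0.25, beside 34.7% and 33.6% of all genes.

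Genes of the Notch pathway, which acts upstream of Hes1, Hes5 and Hey1, were called in both directions. Of 28 genes listed, 6 were higher and 15 lower, with a median log2 fold change of -0.40. Over all genes 34.7% were called higher and 33.6% lower. The lower genes with the largest changes were Dlk1 (-3.85), an atypical ligand, and Dll4 (-2.09), Jag2 (-1.64) and Maml1 (-1.32), which encode a pair of ligands and a coactivator. The receptor genes Notch1 (-0.96) and Notch2 (-1.13) and the DNA-binding effector gene Rbpj (-0.95) were lower as well, with adjusted p from 1.19e-06 to 4.96e-05 in edgeR. The receptor genes Notch3 (-0.07, adjusted p = 0.645) and Notch4 (0.0004, adjusted p = 0.998) did not pass. The higher genes with the largest changes were Numb (1.05), which restrains Notch receptors, Dner (0.83), Adam10 (0.42), which encodes a receptor-cleaving protease, and Psenen (0.38). The call of Psenen was lost without Ezh2 f/f replicate 1 (0.26) or Ezh2 cKO replicate 1 (0.31). Nrarp, a Notch target that gives negative feedback, had 41 and 24 counts against 60 and 39 and did not pass (0.52, adjusted p = 0.176).

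**Figure D4:**
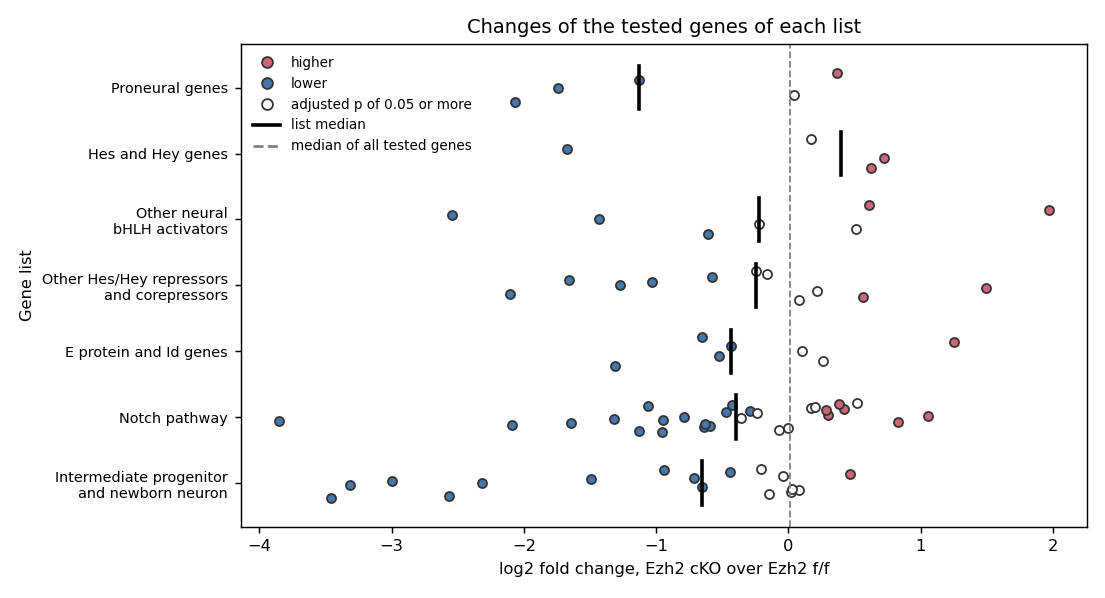
Log2 fold change (Ezh2 cKO over Ezh2 f/f) of the tested genes of each list, 1 circle per gene. Red circles were called higher and blue called lower in edgeR, white circles were not called, black bars are list medians and the dashed line is the median of all tested genes, 0.02. The median was -1.13 for the 5 proneural genes, 0.40 for the 4 Hes and Hey genes and -0.65 for the 17 intermediate progenitor and newborn neuron genes.

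Genes of intermediate progenitors and newborn neurons, the stage at which Neurog2 and Neurod1 act, were lower in 10 cases and higher in 1 of 17. Their median log2 fold change was -0.65, and over all genes 33.6% were called lower and 34.7% higher. Eomes, which marks intermediate progenitors, had 160 and 251 counts in Ezh2 f/f against 13 and 27 in Ezh2 cKO, or -3.46 as log2 fold change (adjusted p = 5.49e-07 in edgeR). Igfbpl1 (-3.31), Sox11 (-2.99) and Insm1 (-2.57) were the next lowest. Other genes of the list did not pass, among them Rnd2, a target of Neurog2 in migrating neurons (0.08, adjusted p = 0.529), and Gadd45g (0.02, adjusted p = 0.913). The 1 higher gene was Stmn2 (0.47, adjusted p = 8.33e-05).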

How the data were processed

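RNA of cortical cells from P5 mice, purified with anti-GLAST beads, was sequenced (2 libraries per genotype). The authors deposited counts of reads per gene without normalization, and FPKM values. In each of 24756 genes with a count in at least 2 libraries, these FPKM equal the count divided by 1 length per gene and by the total of the table, within 0.1%. The submitters' processing notes name Bowtie2 2.2.3, TopHat2 2.0.12, HTSeq 0.6.0 and mm9. Annotation and use of strand are not given in the sources used here. The deposited table also holds the authors' comparison (a mean signal, a ratio or fold, its log2 value and p-values), which was not used. Deposited coordinates matched GENCODE M21 (GRCm38) for 581 of 28799 genes, so positions are from GENCODE, by identifier. Every sample column was used (0 left out).

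Groups follow the sample titles. Genes were filtered with filterByExpr (16793 left), normalized by TMM and tested with edgeR 4.0.16 in R 4.3.3 with group as the only term. Intervals are 95%. The alternatives were DESeq2 1.42.0, its size factors in edgeR, other filters, limma 3.58.1 on log2(FPKM + 1) and log2(FPKM + 0.1), the replicate number as a block, and each library left out. The main edgeR test, DESeq2 and limma on log2(FPKM + 1) were run on simulated counts with 200 changed genes, and the other alternatives were not. Far more genes were called in the data, so the simulation does not show how normalization or false calls behave here. With 2 libraries per group the smallest exact permutation p of a single gene is 0.333, and the p-values given are from models over all genes. Python 3.11.15 and pandas 2.3.3 made the tables. The members and lists were chosen with earlier results of these data known. All members were named, and from each list, by default, up to 4 called genes in each direction with the largest change. The other genes named from a list (Notch1, Notch2, Notch3, Notch4, Rbpj, Nrarp, Tcf4, Tle4, Tle5, Rnd2, Gadd45g, Neurog1, Atoh1 and Olig3) were chosen after their values were seen. A gene that the default rule would name is not reported here. Replicates exceeded sampling noise (chi-square per degree of freedom 9.70 for f/f, 6.10 for cKO). A count of 3 was the floor of detection, 0.171 to 0.184 CPM, for counting error only.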

Additional observations from a re-analysis of the deposited data

How the results depend on the processing

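Over 12 alternatives, Neurog2, Neurod2, Neurod6, Hes6 and Hes1 kept their direction and passed wherever they were tested. The filter on a mean of 50 counts removed Neurog2. Over the 9 genes, 94 of 107 values kept direction and side of the threshold, 8 no longer passed (7 for Bhlhe22, 1 for Hes5), 3 newly passed (Hey1 in limma) and 2 changed sign, both for Neurod1 without 1 library (-0.29 without Ezh2 cKO replicate 2 and -0.00073 without Ezh2 f/f replicate 1, in a range of -0.29 to 0.31 with a library left out). Of 32 called genes named from the other lists, 25 passed under every alternative that tested them, and Nhlh1, Heyl, Helt, Tcf12, Id2, Id4 and Psenen did not. With a library left out, the log2 fold change ran from -1.15 to 0.082 for Id4 and, among genes that were not called, from -0.052 to 0.21 for Rnd2 and from -0.093 to 0.13 for Gadd45g. The proneural genes held 0 higher genes, in place of 1, in DESeq2, without the filter on low counts and in the 3 limma analyses, and 0 to 1 with a library left out. With a library left out, the Hes and Hey genes held 1 to 2 higher genes, the other Hes and Hey repressors and corepressors 1 to 2 higher, and the E protein and Id genes 1 to 3 higher and 2 to 4 lower. In limma on FPKM, 1 of the 4 other neural bHLH activators left by the FPKM filter was lower with either pseudocount. That filter removed Nhlh1 and Nhlh2, so they were not tested there, and without it 3 of the activators were lower. In all 3 limma analyses, 1 of the E protein and Id genes was lower. Without the FPKM filter, 1 of the other repressors and corepressors was higher. With a mean of 50 counts, 2 E protein and Id genes were higher. The cause of the other shifts was not tested.

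With the replicate number as a block, 5795 genes were higher and 5599 lower, and 2 E protein and Id genes were higher. The labels give no shared litter or day behind the numbers, and the deviations of same-numbered libraries correlated over genes at 0.13, so the block rests on numbers alone. It changed no call among the 9 genes.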
